A study of Mus musculus with 28 samples.

Results

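The transcripts described here are those of 9 genes that set whether a T cell lives or dies: *Bcl2*, *Bcl2l1*, *Mcl1*, *Bcl2l11*, *Bax*, *Bak1*, *Fasl*, *Fas* and *Casp8*. They were taken by symbol from the 53801 features of the deposited expression table, and all 9 were found. RNA was measured in bulk in Treg cells, regulatory T cells that restrain other lymphocytes, sorted as TCR+ CD4+ CD25hi CD127lo from C57BL/6 mice with CT2A, a mouse glioma line, growing in the brain as a model of glioblastoma (GBM). The mice received IgG2a, the isotype control antibody, or αPD1 + αGITR, antibodies to the checkpoint receptor PD1 and to the co-stimulatory receptor GITR. There were 4 doses of 250 µg per mouse, 3 days apart, from a tumor size of 2 mm3, and organs were taken 2 days after the last dose. The 4 groups were splenic Treg cells after IgG2a (n = 7 libraries) and after αPD1 + αGITR (n = 8), and GBM Treg cells after IgG2a (n = 5) and after αPD1 + αGITR (n = 7). Every mouse carried a tumor, so the spleens are not those of tumor-free animals, and by the series' design text each library of a tissue came from another mouse. Libraries are named below by the numbers in their labels, which give no age of the mice. Up to 4 spleens share a number (79_a to 79_d), what the numbers mean is not stated, and if such spleens share an animal the p-values that use them are too small. With libraries of equal number averaged, 0 members were called in any comparison.

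Cell death in lymphocytes runs along 2 routes. In the mitochondrial route, BAX and BAK permeabilize the outer mitochondrial membrane, BCL2, BCL-XL and MCL1 hold them back, and BH3-only proteins such as BIM free them. In the death receptor route, Fas ligand on one cell engages Fas on another, and caspase-8 is activated at the receptor. Treg cells depend on MCL1 and are kept in number by BIM, and activated T cells are known to lose BCL2.

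*Bcl2* and *Fasl* had the largest differences of the 9 between the treated tissues, one lower and the other higher in tumors, and the sequence just upstream of their start sites is shown here for reference. The 250 bases before the start are given from RefSeq, build GRCm38.p6, on the minus strand, at chr1:106714291-106714540 for *Bcl2* and at chr1:161788496-161788745 for *Fasl*. Capitals mark the letters GGAAA, the core that NFAT factors of T cell activation bind, or TTTCC, the same letters on the other strand.
Bcl2: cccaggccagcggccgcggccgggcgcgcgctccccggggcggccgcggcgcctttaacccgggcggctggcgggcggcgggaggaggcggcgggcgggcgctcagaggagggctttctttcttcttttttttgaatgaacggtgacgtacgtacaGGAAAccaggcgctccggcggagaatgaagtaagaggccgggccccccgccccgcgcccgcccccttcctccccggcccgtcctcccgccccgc
Fasl: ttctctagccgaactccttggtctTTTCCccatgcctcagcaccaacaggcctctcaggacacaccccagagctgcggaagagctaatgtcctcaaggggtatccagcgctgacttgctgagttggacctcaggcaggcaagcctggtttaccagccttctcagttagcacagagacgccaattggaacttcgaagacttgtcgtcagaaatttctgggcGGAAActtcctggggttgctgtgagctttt
*Bcl2* held 1 such match, at position -94 from its start, in a window of 74.8% G and C. *Fasl* held 2, at positions -226 and -30, in a window of 53.6% G and C. The core is short, and 55.6% of 32851 mouse promoter windows of that length hold it, so these matches are only a description. Neither window held the letters TGANTCA of AP-1 (in 6.75% of all windows), TTCNNNGAA of STAT factors (7.02%) or TGTTTAC of forkhead factors (3.17%), searched on both strands.

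The genes lie at separate loci (GRCm38, GENCODE). *Bcl2* spans chr1:106538178-106714274, *Fasl* chr1:161780689-161788495 and *Casp8* chr1:58795374-58847503. *Bcl2l11* spans chr2:128126038-128162547 and *Bcl2l1* chr2:152780668-152831728. *Mcl1* lies at chr3:95658788-95663176, *Bax* at chr7:45461697-45466898, *Bak1* at chr17:27019810-27029009 and *Fas* at chr19:34290666-34327772. All are protein-coding. Smart-Seq2 libraries keep no strand, so reads on exons shared with another gene cannot be told apart. *Bcl2* shares 6.09% of its exonic bases with the antisense transcript *D630008O14Rik* (mean of 2.03 TPM), and *Bax* shares 12.2% with *Gm45808* (0.333 TPM). *Bak1* shares 2 stretches, 7.35% and 18.2%, with *Ggnbp1* on the opposite strand (0.659 TPM).

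The label of Treg cells was checked against *Foxp3*, *Il2ra*, *Ctla4*, *Ikzf2*, *Tnfrsf18* and *Izumo1r*, of which none was below 1 TPM in all libraries of a group. Their summed level had a median of 498 TPM in the IgG2a spleens, 503 TPM in the treated spleens, 865 TPM in the IgG2a tumors and 1467 TPM in the treated tumors. Libraries differed widely within groups, and some of the properties below also differed between the tissues. The 10 most abundant features of a library, largely ribosomal and repeat-derived, held 35.7% to 79.3% of its TPM, with medians of 65.0% and 59.97% in spleens and of 58.6% and 47.8% in tumors, after IgG2a and αPD1 + αGITR. Transcripts of macrophages and microglia (10 genes) summed to 8.85 to 284 TPM in the 15 spleens and to 26.9 to 300 TPM in 10 of the 12 tumors. They summed to 4804 TPM in GBM IgG2a library 79_a and 1828 TPM in GBM αPD1 + αGITR library 73_a. Red cell transcripts (6 genes) ranged from 8.90 to 28410 TPM in spleens and from 0.3 to 2371 TPM in tumors. Their medians were 1573 and 6884 TPM in spleens and 49.9 and 17.65 TPM in tumors, after IgG2a and αPD1 + αGITR. Another GBM IgG2a library had the fewest genes above 1 TPM, 7702 against 10175 to 17460 in all others. Since TPM share 1 total, a library with more ribosomal signal has less of it for every other gene, which bears on all levels below.

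**Figure D1:**
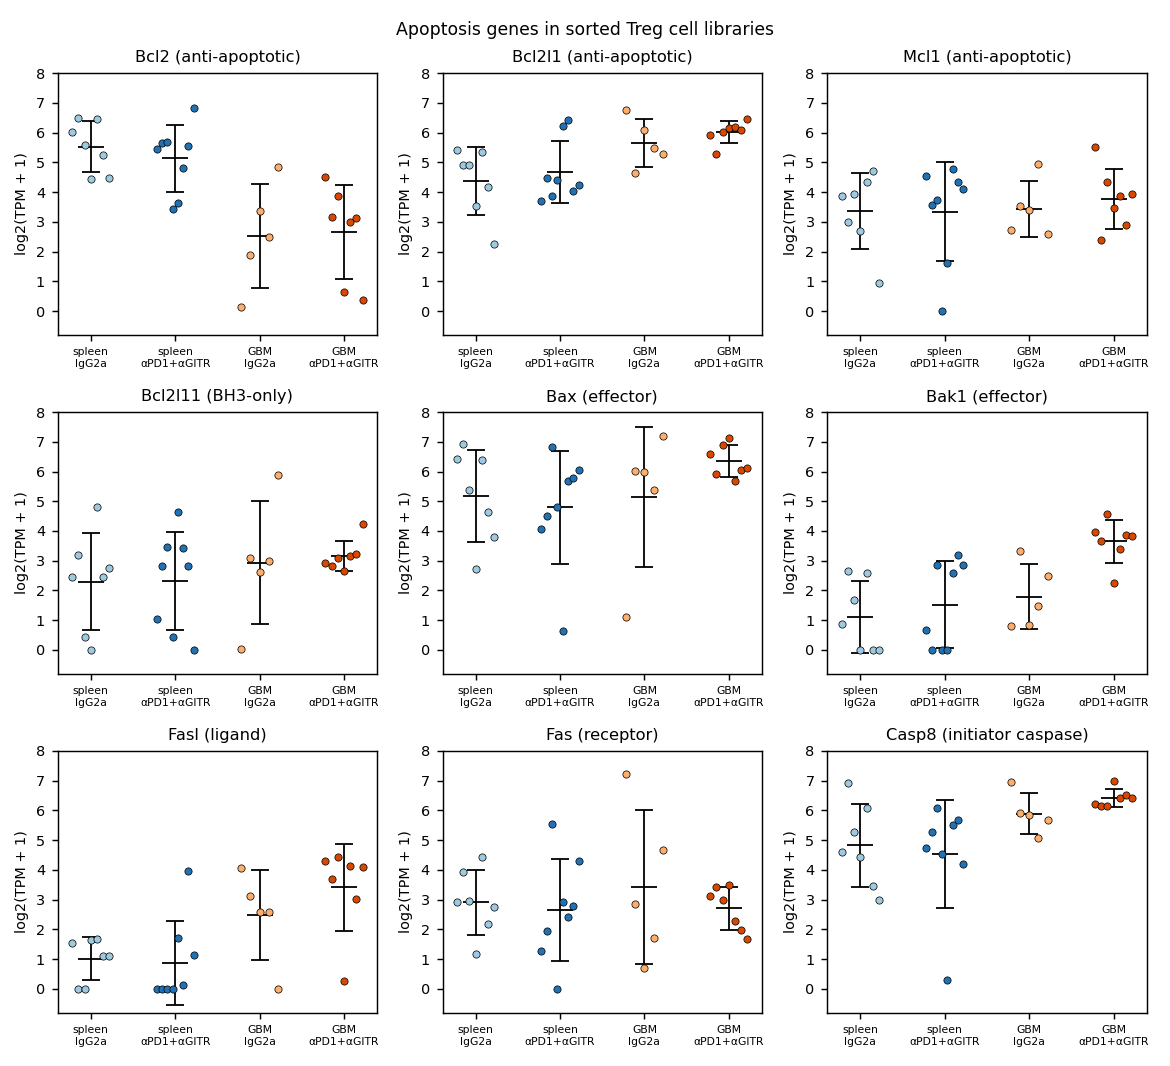
Level of each gene, as log2(TPM + 1), in every library, 1 point per library, with bars at the mean ± SD of the 4 groups (n = 7, 8, 5 and 7). *Bcl2* sits lower in both tumor groups than in both spleen groups, with medians of 4.58 and 7.71 TPM against 47.5 and 44.3 TPM, and the 7 treated tumors lie above all 8 treated spleens for *Casp8*.

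The tissues were compared first. *Bcl2*, the anti-apoptotic gene that is high in resting T cells, was lower in GBM Treg cells than in splenic Treg cells under either treatment. After IgG2a, the 7 spleens held from 20.7 to 88.8 TPM with a median of 47.5 TPM. The 5 tumors held 0.09, 2.67, 4.58, 9.37 and 27.6 TPM. Of these, 4 were below every spleen, and the exception was library 79_a, which also held the most macrophage transcripts. The other tumor rich in them, αPD1 + αGITR library 73_a, held 0.56 TPM of *Bcl2*. The part of macrophages in the level was not tested. The mean *Bcl2* level after IgG2a was 52.3 ± 28.7 TPM (SD, n = 7) in spleens and 8.86 ± 11.0 TPM (SD, n = 5) in tumors. The fitted difference was -2.99 on the log2 scale (SE 0.85), or 7.95-fold lower, with an exact permutation p of 0.00758. Over all 7380 genes tested by limma the adjusted p was 0.106, which misses 0.05 and ranged from 0.00168 to 0.640 over the alternatives. *Bcl2* did pass the study's own threshold, a fold change over 2 with p under 0.05. The study does not say whether that p was adjusted, and it is taken here as unadjusted. Of all genes 9.93% met this threshold, and 2.30% met it as lower. *Bcl2* reached this fit through the spleens alone, so its place among all genes is no support.

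After αPD1 + αGITR, *Bcl2* was again lower in GBM Treg cells, in libraries that share none with those above. The 8 spleens ranged from 9.82 to 112 TPM with a median of 44.3 TPM, and the 7 tumors ranged from 0.28 to 22.0 TPM with a median of 7.71 TPM. Of the tumors, 5 lay below every spleen, and the other 2, libraries 70_a and 72_a, lay within the spleens' range. *Bcl2* fell by 2.46 on the log2 scale (SE 0.67), which is 5.51-fold, with an adjusted p of 0.0190 and an exact p of 0.00311. Over all 7506 genes tested 1.61% were called lower at an adjusted p under 0.05, and *Bcl2* again reached the fit through the spleens alone. The call held without each of the 15 libraries in turn, with adjusted p from 0.0142 to 0.0474. It was lost when the 2 spleens with over 70% of their TPM in 10 features were left out (adjusted p = 0.0642), without the filter on low values (0.112) and with libraries of 1 label number averaged (0.0574).

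In this fit as a whole 17.5% of genes were called, namely 15.8% as higher in tumors and the 1.61% above as lower, while 40.2% met the study's threshold. The median difference of all genes was 0.95 on the log2 scale after αPD1 + αGITR and 0.48 after IgG2a, so a typical gene stood higher in GBM libraries. Of genes past the study's threshold, 84.3% were higher in GBM after αPD1 + αGITR and 76.8% after IgG2a. With quantile normalization those shares became 47.9% and 43.4%, and the medians 0.15 and 0.04. *Bcl2* lay below zero under each scaling tried, and further below it when the shift was removed, at -3.28 after αPD1 + αGITR and -3.85 after IgG2a with quantile normalization.

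*Bcl2l1*, which encodes BCL-XL, stood higher in many GBM libraries. The IgG2a spleens ranged from 3.8 to 41.9 TPM with a median of 29.2 TPM, and the IgG2a tumors held 23.8, 37.9, 44.1, 67.6 and 108 TPM. Of the 5 tumors, 3 were above every spleen, and the difference did not pass any threshold (exact p = 0.0530, adjusted p = 0.600). After αPD1 + αGITR the spleens ranged from 12.2 to 84.2 TPM with a median of 19.0 TPM, and the tumors from 37.7 to 87.7 TPM with a median of 66.8 TPM. The groups overlapped through 2 spleens, libraries 73_a at 84.2 TPM and 72_c at 73.8 TPM, and the other 6 lay below all tumors. The fitted difference was 1.34 (SE 0.51), with an exact p of 0.0103 and an adjusted p of 0.0611. It passed the study's threshold, and it became significant without either of these 2 spleens, with adjusted p as low as 0.0211. With quantile normalization it was 0.76 (adjusted p = 0.303) and with TMM-type factors 0.57 (adjusted p = 0.499), both under 2-fold. Red cell precursors are known to be rich in BCL-XL, and those 2 spleens had 28170 and 18510 TPM of red cell transcripts. Spleen 74_a had the most, 28410 TPM, with *Bcl2l1* at 15.6 TPM, and spleen 80_a had 10990 TPM with *Bcl2l1* at 17.7 TPM. The part of these cells in the level was not tested.

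*Mcl1*, the short-lived anti-apoptotic member, showed no difference that passed a test. Its medians were 13.6 and 14.3 TPM in spleens and 9.63 and 13.6 TPM in tumors, after IgG2a and αPD1 + αGITR. Single libraries ranged from 0 to 44.8 TPM, and all groups overlapped. The exact p was 0.932 between the tissues after IgG2a and 0.577 after αPD1 + αGITR. *Bcl2l11*, which encodes BIM, the BH3-only protein that removes surplus T cells, had medians between 4.45 and 7.61 TPM in all groups (exact p = 0.510 and 0.227 between the tissues). The highest *Bcl2l11* level, 57.7 TPM, was that of GBM IgG2a library 79_a.

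The effector *Bax* was among the more abundant members. The IgG2a groups spanned 5.67 to 120 TPM in spleens and 1.16, 40.4, 62.3, 63.3 and 147 TPM in tumors, with medians of 40.8 and 62.3 TPM and an exact p of 0.937. After αPD1 + αGITR the spleens ranged from 0.55 to 112 TPM with a median of 38.7 TPM, and the tumors from 50.3 to 138 TPM with a median of 68.4 TPM. The groups overlapped, and the fitted difference of 1.55 (SE 0.68) had an exact p of 0.0221 and an adjusted p of 0.0937. It was past the study's threshold only, and not with quantile normalization (0.77) or TMM-type factors (0.82), where it was under 2-fold, nor without spleen 72_c (0.95), the lowest at 0.55 TPM.

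*Bak1*, the second effector, was scarce in spleens and in the IgG2a tumors. It was listed at 0 in 3 of 7 spleens after IgG2a and in 3 of 8 after αPD1 + αGITR, where the highest were 5.37 and 8.17 TPM. The IgG2a tumors held 0.76, 0.78, 1.79, 4.62 and 9.03 TPM. The treated tumors held from 3.76 to 22.8 TPM with a median of 13.2 TPM, and 6 of 7 were above every treated spleen. The exception was library 73_a, which holds many macrophage transcripts. IgG2a tumor 79_a, which holds more of them, had 4.62 TPM of *Bak1*, and their part in the level was not tested. Between the treated tissues *Bak1* rose 4.37-fold, by 2.13 on the log2 scale (SE 0.68), with an adjusted p of 0.0352 and an exact p of 0.00342. With 0.1 added to TPM in place of 1 the rise was 3.495 and not called (adjusted p = 0.0570). With 10 added it was 0.78, under 2-fold (adjusted p = 0.0480). The call was lost under quantile normalization (1.5, adjusted p = 0.106) and kept in 6 of the 15 fits that left out 1 library. It was lost without any one of spleens 70_a, 70_b, 72_b and 72_c or of tumors 70_a, 70_b, 72_a, 74_a and 80_a, with adjusted p up to 0.0752. After IgG2a *Bak1* was below the mean of 10 TPM needed for the fit, and the exact p was 0.364.

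*Fasl*, the ligand, was near the bottom of the range in spleens. It was listed at 0 in 2 of 7 IgG2a spleens and in 4 of 8 treated spleens. The highest were 2.21 TPM after IgG2a and 14.4 TPM in treated library 74_a, where the next spleen held 2.27 TPM. The IgG2a tumors held 0, 5.01, 5.03, 7.72 and 15.7 TPM, so that 4 of 5 were above every IgG2a spleen. The treated tumors ranged from 0.21 to 20.4 TPM with a median of 16.1 TPM, and 4 of 7 were above every treated spleen. In each tumor group the library lowest in *Fasl* was the one highest in macrophage transcripts, 79_a at 0 TPM and 73_a at 0.21 TPM. CD8 T and NK cells also make Fas ligand, and 6 of their markers summed to 0.52 to 13.2 TPM and 4.89 to 65.6 TPM in the spleens after IgG2a and αPD1 + αGITR, and to 4.19 to 18.5 TPM and 4.02 to 41.2 TPM in the tumors. The sort was for TCR+ CD4+ cells, and how many of those cells remained after it is not known. Spleen 74_a, the highest of the spleens in *Fasl*, was also the highest in these markers, and tumor 70_b, the highest of the tumors in them, held 11.98 TPM of *Fasl*. The part of such cells in the *Fasl* level was not tested. After IgG2a the exact p was 0.0732, and the gene was below the filter of the fit. After αPD1 + αGITR *Fasl* rose 5.88-fold, by 2.56 (SE 0.77), with an adjusted p of 0.0295 and an exact p of 0.00746. The size of the rise depended on the number added to TPM. It was 4.34 with 0.1 (adjusted p = 0.0412) and 0.90, under 2-fold, with 10 (adjusted p = 0.0395). Without tumor 73_a the rise was 3.08 (adjusted p = 0.0115), and under quantile normalization it was 1.83 (adjusted p = 0.0836). The call also failed without any one of tumors 70_a, 70_b, 72_a or 80_a or spleen 70_a, with adjusted p up to 0.0649.

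*Fas*, the receptor, showed no difference between the tissues that passed a test. Medians were 6.55 and 5.13 TPM in spleens and 6.23 and 6.84 TPM in tumors (exact p = 0.634 after IgG2a and 0.943 after αPD1 + αGITR). The IgG2a tumors spread the most, at 0.61, 2.28, 6.23, 24.3 and 147 TPM, and the highest was the library with the fewest genes above 1 TPM.

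*Casp8*, the initiator caspase of the death receptor, was the one member whose groups did not overlap in a comparison. The treated spleens ranged from 0.23 to 67.4 TPM with a median of 31.7 TPM, and the treated tumors from 69.5 to 126 TPM with a median of 83.8 TPM. All 7 tumors were above all 8 spleens, a separation seen in 3.00% of all genes tested there and in 1.48% after IgG2a. *Casp8* rose 3.65-fold, by 1.87 (SE 0.65), with an exact p of 0.000311. The adjusted p was 0.0486, so close to 0.05 that it was kept in only 3 of the 15 fits that left out 1 library (0.0313 to 0.0871), those without spleen 70_c, 73_a or 74_a. It was also lost under quantile normalization (1.08, adjusted p = 0.168). Without spleen 72_c, the lowest at 0.23 TPM, the difference was 1.26 (adjusted p = 0.0574). After IgG2a the spleens ranged from 6.93 to 121 TPM and the tumors held 32.7, 50.4, 56.5, 58.8 and 124 TPM (exact p = 0.146, adjusted p = 0.654).

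Counted together, 0 of the 7 members tested were called between the tissues after IgG2a, where 0.569% of all genes were called, and 1 of 7 passed the study's threshold, near the 9.93% of all genes. After αPD1 + αGITR 4 of the 8 tested were called, 3 higher and 1 lower in GBM, and 6 of 8 passed the study's threshold, against 17.5% and 40.2% of all genes. With quantile normalization and TMM-type factors 4 and 3 members passed the study's threshold (27.1% and 24.7% of all genes), and 1 was called with either (14.6% and 8.05%). *Bak1* and *Fasl* reached the treated fit only through the GBM group and *Bcl2* and *Fas* only through the spleens. The IgG2a fit had *Bcl2* only through the spleens and *Fas* and *Bcl2l11* only through the GBM group, so these counts do not describe all 9 genes. Of 36 exact tests, for 9 genes in 4 comparisons, 8 had a p under 0.05 before any adjustment. These tests were run on the members only, so no share over all genes stands beside that count. By limma, 3028 of 7506 genes between the treated tissues and 733 of 7380 after IgG2a had an unadjusted p under 0.05. In bulk libraries, fewer cells with a transcript and less of it per cell cannot be told apart.

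**Figure D2:**
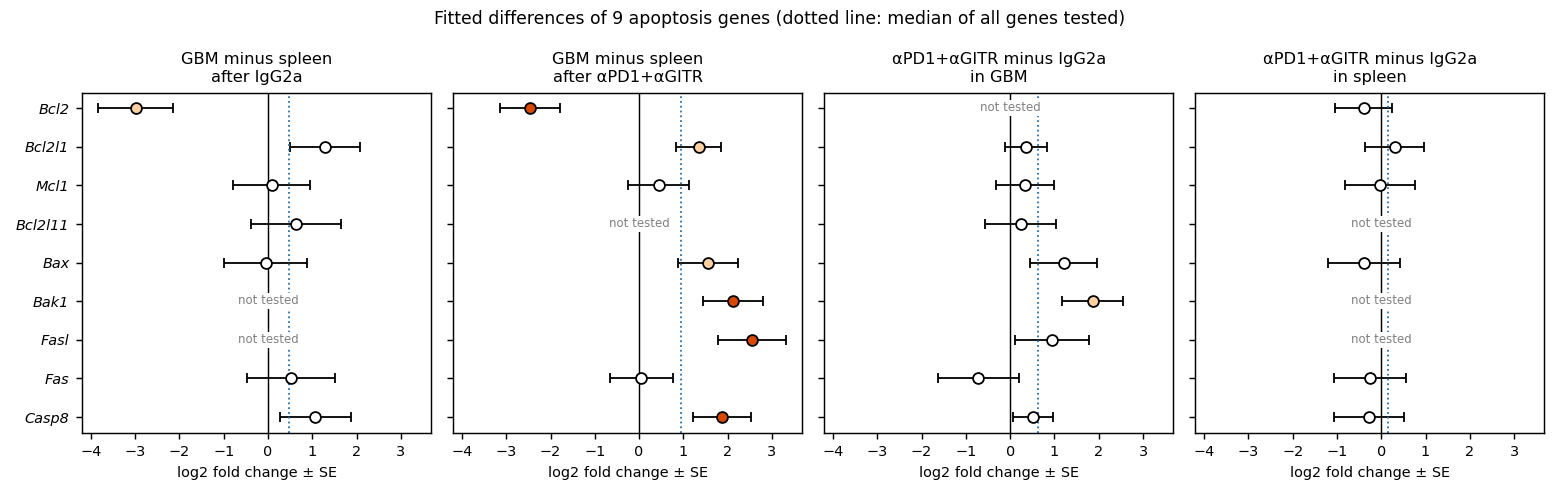
Fitted log2 fold change ± SE of the 9 genes in 4 comparisons, with the median of all genes as a dotted line, filled orange where the adjusted p was under 0.05, pale where only the study's threshold was passed and white otherwise. *Bcl2* lies to the left of zero in both tissue comparisons, at -2.99 and -2.46, while the median of all genes lies to the right of it, at 0.48 and 0.95.

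Since a library's scaling cancels within it, apart from the added 1, the members were also set against *Bcl2* of the same library. These differences of log2(TPM + 1) have no p and use the *Bcl2* values described above. *Bax* stood close to *Bcl2* in spleens, with median differences of -0.21 after IgG2a and -0.27 after αPD1 + αGITR. In tumors it exceeded *Bcl2* in 5 of 5 and 7 of 7 libraries, by medians of 2.61 and 2.94. *Bcl2l1* was below *Bcl2* in 7 of 7 IgG2a spleens and 5 of 8 treated spleens (medians of -1.06 and -1.32). In tumors it exceeded *Bcl2* in 12 of 12 libraries (medians of 2.76 and 2.96). The 3 spleens with more *Bcl2l1* than *Bcl2* were the treated libraries 72_b, 72_c and 73_a.

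*Mcl1* was below *Bcl2* in all 15 spleens (medians of -2.14 and -2.0). It exceeded *Bcl2* in 4 of 5 IgG2a tumors and 5 of 7 treated tumors (medians of 1.64 and 0.87). The BIM transcript *Bcl2l11* exceeded *Bcl2* in 0 of 7 and 1 of 8 spleens, and in 3 of 5 and 4 of 7 tumors (medians of -3.30, -2.77, 0.50 and 0.12). *Fas* exceeded it in no spleen, in 2 of 5 IgG2a tumors and in 3 of 7 treated tumors.

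**Figure D3:**
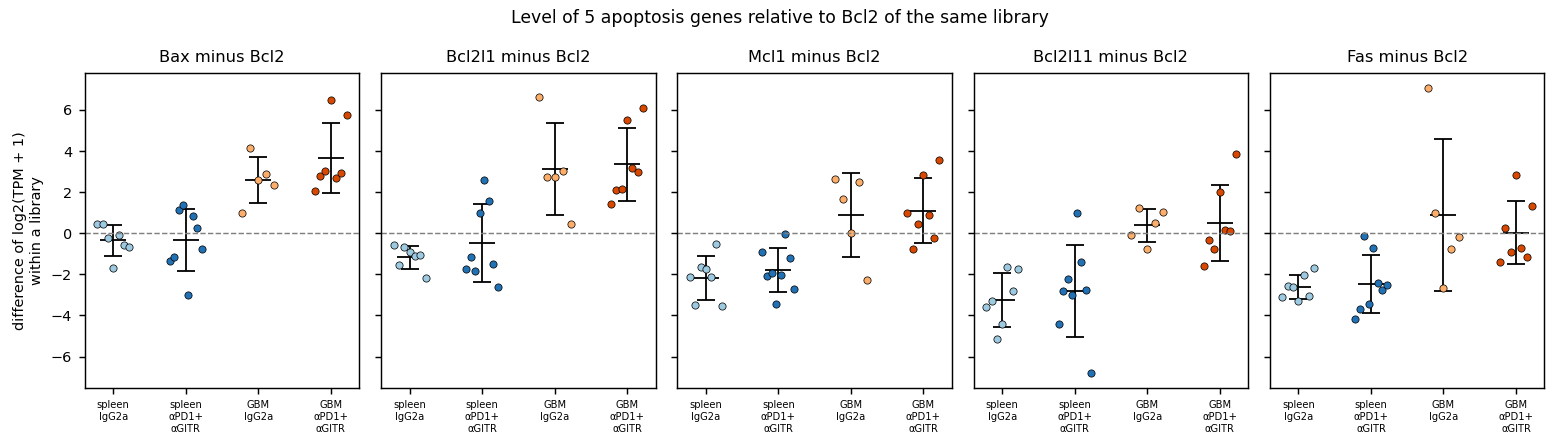
Difference in log2(TPM + 1) between 5 genes and *Bcl2* of the same library, 1 point per library, with bars at the mean ± SD and a dashed line where both are equal. All 12 tumor libraries lie above the line for *Bax* and *Bcl2l1*, and all 15 spleens lie below it for *Mcl1* and *Fas*.

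The question the treatment arms address, what αPD1 + αGITR changed in Treg cells, was asked within each tissue, in libraries that the tissue comparisons also use. In GBM Treg cells, no gene of 7848 tested was called at an adjusted p under 0.05 (0% of genes, lowest adjusted p = 0.0947), while 1749 had an unadjusted p under 0.05. By the study's threshold 21.7% were past it, 16.8% as higher. The median of all genes was 0.62 higher after αPD1 + αGITR, and 0.13 higher with quantile normalization, where 46.4% rather than 77.5% of genes past that threshold were higher. *Bak1* was the only member past that threshold, 1 of 8 tested, and it reached the fit only through the treated tumors, where it is high. Its 7 treated tumors ranged from 3.76 to 22.8 TPM (12.7 ± 5.72, SD), against 0.76 to 9.03 TPM in the 5 IgG2a tumors (3.4 ± 3.52, SD). Of the treated tumors 6 were above all 5 IgG2a tumors, and the groups overlapped through library 73_a. The difference was 1.86 (SE 0.69), or 3.63-fold, with an exact p of 0.0101 and an adjusted p of 0.151 (0.0496 to 0.478 over the alternatives). It no longer passed the study's threshold with quantile normalization (1.08), TMM-type factors (1.38) or a pseudocount of 10 (0.76).

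The other members did not pass a test between treatments in tumors. Median levels after IgG2a and αPD1 + αGITR were 5.03 and 16.1 TPM for *Fasl* (exact p = 0.288) and 56.5 and 83.8 TPM for *Casp8* (exact p = 0.109). They were 62.3 and 68.4 TPM for *Bax* (exact p = 0.253), and 44.1 and 66.8 TPM for *Bcl2l1* (exact p = 0.341). *Bcl2*, at 4.58 and 7.71 TPM, was below the filter of the fit and had an exact p of 0.896. For *Mcl1*, *Fas* and *Bcl2l11* the exact p was 0.578, 0.538 and 0.697.

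In splenic Treg cells no member was called. The limma fit called 0% of 6634 genes, with a lowest adjusted p of 0.449 and 168 genes at an unadjusted p under 0.05, and 2.53% passed the study's threshold, 58.9% of them as higher (43.3% with quantile normalization). *Bcl2* had medians of 47.5 TPM after IgG2a and 44.3 TPM after αPD1 + αGITR, and the exact p of the 9 genes lay between 0.459 and 0.992. *Bcl2l11*, *Bak1* and *Fasl* were below the filter. Whether the effect of treatment differed between the tissues was asked of all 4 groups in 1 fit. Of 8687 genes 0% were called (lowest adjusted p = 0.119), with 1056 genes at an unadjusted p under 0.05 and 12.2% past the study's threshold. None of the 9 members was called by either rule, and the lowest adjusted p among them was 0.587, for *Bak1*.

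Other genes of the same routes were counted from 3 lists. Of 13 further BCL2 family genes 4 were abundant enough to be tested between the treated tissues, and 1 was called, as higher in GBM. It was *Bcl2a1b*, an anti-apoptotic A1 gene, with medians of 10.4 TPM in spleens and 34.0 TPM in tumors (2.08, SE 0.69, adjusted p = 0.0411). Its near-identical copies share reads with it, so the level of each copy is uncertain. All 4 passed the study's threshold, but 3 of them reached the fit only through the tumors, where their mean TPM was higher, so neither that count nor the list's median difference (1.78, against 0.95 for all genes) tells of the family. Over all genes of this fit 17.5% were called and 40.2% passed that threshold.

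Of 12 death receptor genes 9 were tested there, 2 were called, both higher in GBM, and 5 passed the study's threshold. Of these 9, 3 were tested only through the tumors. Of 12 genes of the mitochondrial route and its inhibitors 7 were tested and 1, past both thresholds, was called, a lower share than the 40.2% of all genes at the study's threshold. It was *Xiap*, an inhibitor of caspases, with medians of 4.28 TPM in treated spleens and 18.4 TPM in treated tumors (2.67, SE 0.58, adjusted p = 0.00538). The medians of these 2 lists were 1.28 and 0.67. *Xiap* reached the fit only through the treated tumors, where its mean TPM was higher. *Bcl2a1b*, with a mean above 10 TPM in both groups, lost its call under quantile normalization and with TMM-type factors (1.47 and 1.54, adjusted p = 0.118 and 0.130).

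After IgG2a none of the 18 list genes tested between the tissues was called. By the study's threshold 1 further BCL2 family gene was past it, *Bcl2a1d*, and 4 of 8 death receptor genes and 0 of 6 mitochondrial genes, where 9.93% of all genes were. All 4 BCL2 family genes and 2 of the 8 were tested only through the tumors. Among those past the threshold was *Casp6*, with medians of 3.92 TPM in spleens and 10.9 TPM in tumors (adjusted p = 0.419). *Bid*, which links caspase-8 to the mitochondrial route, had medians of 6.16 and 21.0 TPM (adjusted p = 0.542), and *Trp53*, the stress regulator upstream of that route, 95.4 and 45.3 TPM (adjusted p = 0.632). *Diablo*, which counters XIAP, had medians of 17.5 and 16.7 TPM (adjusted p = 0.701). The lists had median differences of 1.64, 1.60 and -0.09 in these groups, against 0.48 for all genes, and the first is over genes let in by their higher mean in tumors. Between treatments in tumors 0 list genes were called, and 5 of 20 tested passed the study's threshold, all higher after αPD1 + αGITR, a share near the 21.7% of all genes. Of the 20, *Tnf*, *Xiap* and 1 other were tested only through the treated tumors. Among them were *Tnf* (medians of 7.00 and 20.8 TPM, 2.31, SE 0.79, adjusted p = 0.133), *Xiap* (3.95 and 18.4 TPM, adjusted p = 0.151) and *Trp53* (45.3 and 85.2 TPM, adjusted p = 0.185). The list medians were 0.27, 0.52 and 1.09, against 0.62 for all genes. *Bcl2a1b* and *Bad*, a BH3-only gene, were the BCL2 family genes with the lowest p there, at medians of 23.9 and 34.0 TPM and of 7.62 and 12.6 TPM (adjusted p = 0.793 and 0.648). In spleens no list gene passed either threshold. The lowest p of each list there were those of *Bcl2a1b* (7.88 TPM after IgG2a and 10.4 TPM after αPD1 + αGITR), of the caspase-8 regulators *Cflar* (28.3 and 37.8 TPM) and *Ripk1* (2.68 and 2.6 TPM), and of *Birc5* (4.29 and 23.2 TPM) and *Htra2* (27.9 and 37.0 TPM). In the interaction only *Tnf* and *Xiap* passed the study's threshold (adjusted p = 0.380 and 0.317).

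The 4 members with a call between the treated tissues were set against the share of TPM in the most abundant features, a property in which libraries differed widely. *Bak1* was at or near 0 in every library with over 70% of its TPM in 10 features, all of which were spleens, and at most 0.59 TPM there. *Casp8* in those 5 spleens ranged from 6.93 to 37.5 TPM. *Fasl* was 2.15, 1.17 and 1.13 TPM in IgG2a spleens 79_a, 79_c and 79_d, and 0 TPM in αPD1 + αGITR spleens 70_a and 70_b. *Bcl2* in the same 5 spleens was 20.7, 21.1, 36.6, 42.9 and 48.8 TPM, above 10 of the 12 tumors. The part of this share in the levels was tested only through the alternatives given here.

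**Figure D4:**
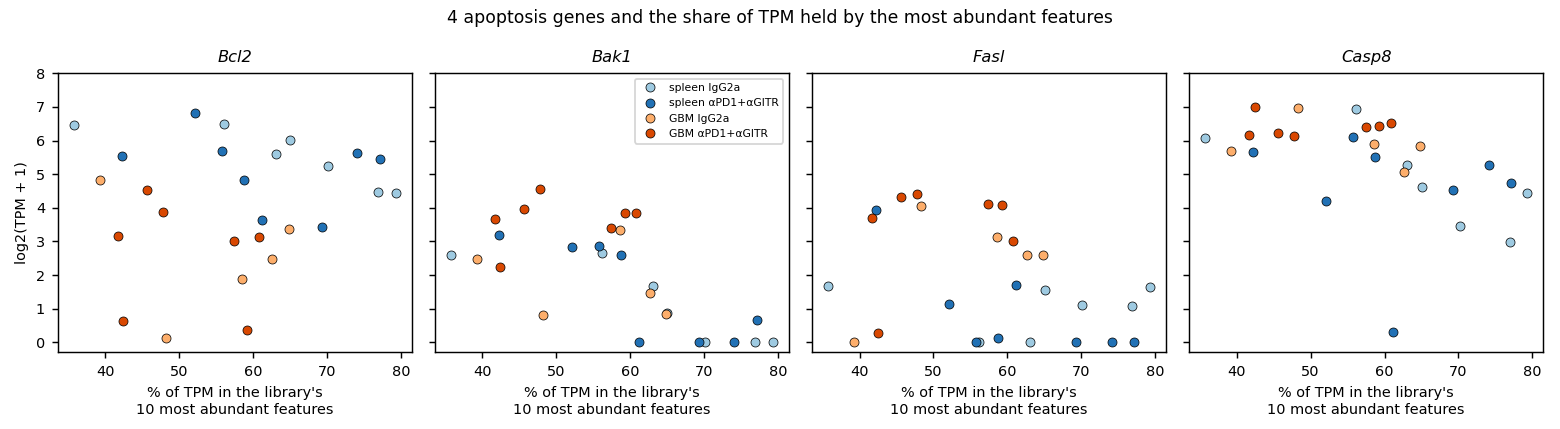
Level of *Bcl2*, *Bak1*, *Fasl* and *Casp8*, as log2(TPM + 1), against the percent of a library's TPM held by its 10 most abundant features, 1 point per library, colored by group. Libraries beyond 70% are spleens only, and there *Bak1* is at 0.59 TPM or less while *Bcl2* stays at 20.7 TPM or more.

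The genes whose levels ranked most like each member over the 27 libraries were found among 8686 genes, as a description without a test, since all share library scaling. For *Bcl2* these were *Id3*, a transcription regulator of resting T cells, and *Nsg2* (Spearman 0.828 and 0.817). *Id3* had medians of 67.2 and 54.6 TPM in spleens and 0.910 and 12.5 TPM in tumors. For *Fasl* they were *Serpina3g*, a protease inhibitor of activated T cells (0.844, with 20.4 and 17.7 TPM in spleens and 135 and 144 TPM in tumors), and *Saal1* (0.811). *Casp8* was most like *Gbp4*, an interferon-induced GTPase, and *Tapbp*, the tapasin of MHC class I loading (both 0.863). *Bak1* was most like *Ywhaz* (0.869) and *Coro1b* (0.861), *Bax* like *Snrnp40* (0.905) and *Puf60* (0.885), and *Fas* like *Npm1* (0.856) and *Aup1* (0.852). *Bcl2l1* was most like *Rnf187* (0.811), *Bcl2l11* like *Tnpo3* (0.760) and *Mcl1* like *Tmem62* (0.716). Among the members, the effectors *Bax* and *Bak1* ranked most alike (0.671), followed by *Bak1* and *Casp8* (0.667). The most opposed pairs were *Bcl2* with *Fasl* (-0.541) and *Bcl2* with *Bcl2l1* (-0.540).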

How the data were processed

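Treg cells were sorted, and bulk Smart-Seq2 libraries of their RNA were read on a NextSeq500. The study's methods name TopHat for alignment (mm10) and RSEM for TPM, and versions are not given in the sources used here. The authors deposited TPM plus 1 for 53801 features, so 1 was subtracted from each value. Of 28 libraries described, 27 had a named column, and 1 unnamed column of values was not used. Read depth is unknown, so the spread between libraries alone gives the precision. The series' design text describes replicates of a tissue as different mice, but some spleens and tumors share a label number of unknown meaning. No pair of libraries was identical. The members and lists were chosen with earlier results of these data known.

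log2(TPM + 1) was fitted with limma 3.58.1 (R 4.3.3, trend) over the 2 groups compared, for genes whose mean TPM exceeded 10 in either group, and over all 4 groups for the interaction. Two-sided p-values were adjusted after Benjamini and Hochberg over all genes tested, and a gene was called at an adjusted p under 0.05. Fold changes are on the log2(TPM + 1) scale, which understates the change of low genes. Members were also compared by exact permutation tests, two-sided (SciPy 1.17.1), whose p cannot go below 0.00126 for 5 against 7 libraries. In each comparison the text names all members and, from each list, the called genes or, with none, the 2 with the lowest p. Some list genes enter the counts only and are not reported by name. Alternatives changed the pseudocount, the filter, the scaling, the weights, the covariates or the libraries. 3 of them were chosen after seeing the data: rescaling without the 10 most abundant features, leaving out libraries with over 70% of TPM in these, and leaving out those with over 1000 TPM of macrophage transcripts. The genes of other cell types were listed from general knowledge.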

Additional observations from a re-analysis of the deposited data

Results flagged for a closer look

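In 12 of the 36 combinations of gene and group 1 library stood apart, with a gap to the nearest other library that was large for the range of its group by Dixon's 95% criterion on TPM. By chance the criterion flags about 1 in 20 groups of normally distributed values. TPM were not log-transformed for it, so that rate need not hold here and no excess is read from the count. All 12 were the highest of their group. *Bcl2l11* had such a library in every group: 27.2 TPM in IgG2a spleen 79_b, 24.1 TPM in αPD1 + αGITR spleen 72_c, 57.7 TPM in IgG2a tumor 79_a and 17.6 TPM in αPD1 + αGITR tumor 80_a. The IgG2a tumor library with the fewest genes above 1 TPM stood apart for both *Fas* (147 TPM, next 24.3 TPM) and *Casp8* (124 TPM, next 58.8 TPM). *Casp8* was also high in αPD1 + αGITR tumor 73_a, at 126 TPM. *Mcl1* reached 30.04 TPM in IgG2a tumor 78_a and 44.8 TPM in αPD1 + αGITR tumor 70_a. Among the αPD1 + αGITR spleens, *Bcl2* was 112 TPM in library 80_a, *Fas* 46.0 TPM in 70_c and *Fasl* 14.4 TPM in 74_a. The causes were not tested.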

How the results depend on the processing

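Of 38 differences of members fitted, 18 kept their sign under every alternative that gave them a value, among them the 8 whose fold change is given above. Of the other 30, 0 passed an adjusted p under 0.05 under any alternative. After IgG2a, genes called between the tissues (42) numbered 12 and 70 with pseudocounts of 0.1 and 10, 6 without a filter, 9 with a mean above 10 TPM in every group, 102 with quantile normalization, 262 with library weights, 140 in a fit of all 4 groups, 5 with the label number as a replicate block and 19 without libraries over 70%. Members called were 1 (*Bcl2*) with quantile normalization, TMM-type factors, library weights or all 4 groups. After αPD1 + αGITR, genes called (1310) numbered 678 with the pseudocount of 0.1, 256 without a filter, 565 with the filter in every group, 604 with TMM-type factors, 2123 with weights, 724 with 4 groups, 811 with genes detected as a covariate, 254 with equal label numbers averaged, 495 with the block, 592 rescaled, 492 without libraries over 70% and 696 without those high in macrophage transcripts. Members called (4) were 0 without a filter, with the filter in every group, averaged or without libraries over 70%, 1 with quantile or TMM-type scaling, and 2 with the pseudocount of 0.1, the covariate, rescaling or the block (adjusted p = 0.0453 for *Bcl2* and *Fasl*), and rose to 5 with the pseudocount of 10 (*Bcl2l1* added) and 6 with weights (*Bcl2l1* and *Bax* added). Between treatments in tumors (0) 1 gene was called with the pseudocount of 0.1, without a filter or with quantile normalization, 2 with the pseudocount of 10, 263 with weights (1 member, *Bak1*, adjusted p = 0.0496), 79 with the covariate and 4 without libraries high in macrophage transcripts. In spleens 1 was called with quantile normalization.

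Leaving out each library in turn gave 23 to 75 genes after IgG2a (75 without spleen 79_b, 25 without spleen 76_a, and 27, 26 and 23 without tumors 76_a, 78_a and 77_a). After αPD1 + αGITR it gave 591 to 2279 genes (2279 without spleen 73_a, 836 and 693 without spleens 72_b and 70_a, and 591, 625, 674 and 696 without tumors 70_b, 70_a, 72_a and 73_a) and 1 to 5 members. Between treatments in tumors it gave 0 to 103 genes (103 without αPD1 + αGITR tumor 73_b, 21 without IgG2a tumor 79_a), and in the interaction 0 to 2. The causes were not tested. Libraries of the 2 tissues with the same label number did not deviate together. Correlations of deviations ran from -0.159 to 0.182, and 1 of 9 was best with its own number. With libraries that vary this much, such values cannot tell whether equal numbers mark 1 mouse. No block was fitted between treatments, which share no label number. With unknown depth, values listed at 0 are not shown to be absent.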
